A study of Caenorhabditis elegans with 2 samples.

Results

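Oxidative phosphorylation genes of Caenorhabditis elegans were examined for peaks of SAEG-2 in chromatin immunoprecipitation followed by sequencing (ChIP-seq). They were taken by symbol among protein-coding genes of the WBcel235 annotation, as names that begin with nuo-, with ndu and further letters, with sdha- to sdhd-, ucr-, cyc-1 or cyc-2, or that consist of cox- or atp- with a subunit number. The rule gave 63 of 19973 nuclear protein-coding genes: 31 of complex I, 4 of complex II, 6 of complex III, 2 of cytochrome c, 15 of complex IV and 5 of complex V. No measured value entered the rule. Both samples are biological replicates of 1 group of whole L4 larvae, collected at 48 h after starvation as L1 larvae. They share the strain RW12230, whose saeg-2 gene on chromosome III carries the insertion TY1::EGFP::3xFLAG, made with CRISPR, and the precipitation used an anti-GFP antibody. No untagged strain, second condition or control precipitation was analysed here, and whole animals pool all tissues, so the tissue behind a peak cannot be told apart.

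The respiratory chain moves electrons from NADH through complex I, and from succinate through complex II, to ubiquinone, then through complex III and the mobile carrier cytochrome c to complex IV, which reduces oxygen. Complexes I, III and IV pump protons, and complex V, the ATP synthase, uses the proton gradient to make ATP. Most subunits are encoded in the nucleus and a few of complexes I, III, IV and V on mitochondrial DNA, so the nuclear genes must be expressed in balance. In the worm, SAEG-2 works together with SAEG-1 and HDA-2, a histone deacetylase, under the cGMP-dependent kinase EGL-4.

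A gene was called bound where the summit of a peak in the authors' conservative list (1145 peaks, drawn from both replicates) lay in its window. The window reached 1000 bp upstream and 500 bp downstream of each of its annotated 5′ ends. The bases around the summits of 6 peaks are shown because the members differ most in what else lies under the peak. They belong to the strongest bound members whose sequence is printed, were read from the RefSeq copy of WBcel235 on the plus strand, and are trimmed at annotated UTRs. Capitals mark the 11 bases centred on the summit.
cox-5A (chrIII:12905151-12905231): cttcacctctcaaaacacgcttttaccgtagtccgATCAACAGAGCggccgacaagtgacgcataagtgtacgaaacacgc
cox-6A (chrIII:5080842-5080922): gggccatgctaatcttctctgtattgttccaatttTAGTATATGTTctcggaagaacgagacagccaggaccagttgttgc
nduf-2.2 (chrIII:6464360-6464440): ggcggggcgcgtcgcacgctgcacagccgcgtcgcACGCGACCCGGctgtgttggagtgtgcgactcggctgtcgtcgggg
sdha-1 (chrX:8546167-8546247): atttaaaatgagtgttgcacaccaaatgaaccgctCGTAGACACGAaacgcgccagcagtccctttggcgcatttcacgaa
nduc-2 and cox-6B (chrIII:2785949-2786022): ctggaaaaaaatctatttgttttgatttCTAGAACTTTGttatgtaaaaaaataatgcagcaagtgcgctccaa
nduf-9 (chrIII:3249260-3249338): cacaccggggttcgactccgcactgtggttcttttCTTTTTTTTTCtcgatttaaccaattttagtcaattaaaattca

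These runs differ widely in composition. G and C made up 75.3% of the bases at nduf-2.2, 50.6% at cox-5A, 48.1% at sdha-1, 44.4% at cox-6A, 36.7% at nduf-9 and 29.7% at the peak of nduc-2 and cox-6B. With one measure for every peak, the median was 50.5% over the 10 peaks of bound members (32.7 to 72.3). Over all 1145 conservative peaks, which include these 10, it was 48.5% (19.8 to 79.2). The run at cox-6A lies over the snRNA gene F54D8.7, that at nduf-2.2 over the noncoding RNA gene T26A5.10, and that at sdha-1 over parts of the snoRNA gene D2021.6 and the noncoding RNA gene D2021.5. The run at nduf-9 begins at the last base of the miRNA gene cel-mir-4936. The run at cox-5A overlaps no noncoding gene whose window holds the summit.

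The set was bound in 11 of 63 genes (17.5%, 95% Wilson interval 10 to 28.6), against 619 of all 19973 nuclear protein-coding genes (3.10%). The bound genes were nduc-2, nduf-2.2 and nduf-9 of complex I, sdha-1 of complex II, the cytochrome c gene cyc-2.1, the complex IV genes cox-5A, cox-5B, cox-6A and cox-6B, and atp-1 and atp-2 of complex V. They rested on 10 peaks, since nduc-2 and cox-6B share one. Intervals cover counting error only, the depth of the libraries is unknown, and no test of the set was made because it was proposed with earlier results of these data known. The shorter list of replicate 1 held a summit in the windows of 5 of the 63 genes (7.94%), against 1.48% of all coding genes. That of replicate 2 also held 5 (7.94%), against 1.63%. Both lists held cox-5A, cox-5B and atp-1. The non-conservative list gave 11 of 63 (17.5%), against 3.58% of all coding genes, with ucr-2.2 in place of cyc-2.1.

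**Figure D1:**
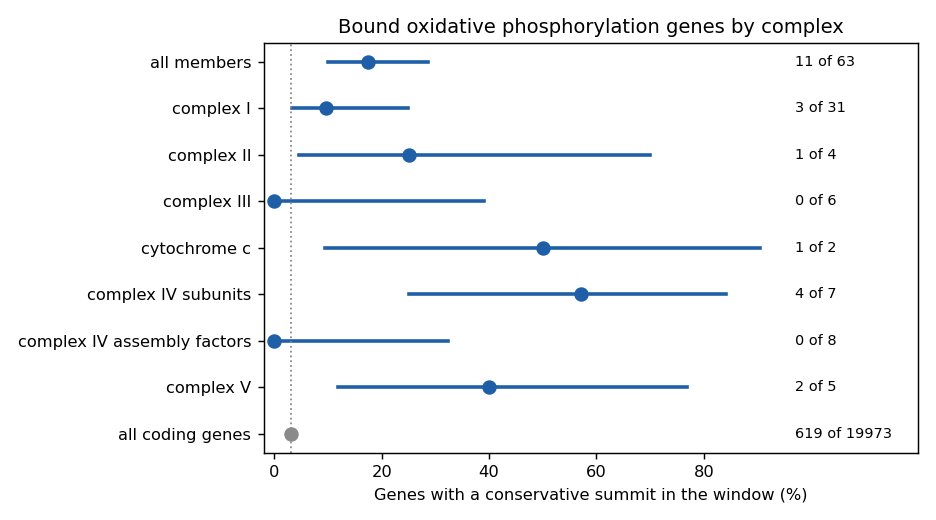
Share of genes with a conservative summit in the window (x axis, percent), by respiratory complex, with points for the share and lines for the 95% Wilson interval. Among genes taken by symbol, complex IV subunits (4 of 7) and complex V (2 of 5) have the highest shares of the 5 complexes. No complex III gene or complex IV assembly factor is bound, and the dotted line marks the 3.10% of all coding genes.

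The windows of the set are not larger than usual. A single annotated 5′ end was present in 82.5% of the 63 genes, against 72.6% of all coding genes, and the windows covered 1577 bp on average, against 1800 bp. Among genes with a single 5′ end, 7 of 52 in the set were bound (13.5%), against 2.37% of all such coding genes.

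Complex IV, cytochrome c oxidase, held the strongest peaks of the set, with 4 of 15 genes bound (26.7%, Wilson interval 10.9 to 52.0, which overlaps that of complex I). All 4 of its bound genes encode nuclear subunits of the enzyme, of 7 such genes (57.1%, Wilson interval 25 to 84.2). The other 8 genes that the symbol rule takes, cox-10, cox-11 and cox-14 to cox-19, are named for factors that assemble the enzyme, and none was bound (upper end of the interval 32.4%). The highest signal value of a summit in the window was also taken from the authors' ranked list of both replicates, which includes peaks below the threshold. Its median was 91.4 over the 7 subunit genes and 27.2 over the 8 assembly genes, with a gene without a ranked peak set at 0. That list also holds the peaks behind the 4 bound subunit genes, so the median of 91.4, the cox-6B peak, restates that call.

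The gene cox-5A, for one of these subunits, carried the strongest peak. Its signal value, on the authors' own scale, was 289 in the conservative list, rank 33 of 1145, with 159 in replicate 1 and 133 in replicate 2. The peak (III 12905123 to 12905275) passed the threshold in both replicates. Its summit was intergenic and lay 300 bp upstream of the only annotated 5′ end. Of the 11 bound genes, cox-5A alone had a peak whose summit lay in the window of no other gene, coding or noncoding.

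The peak at cox-5B (I 9788545 to 9788848) had a signal value of 146, rank 193, with 74.3 in replicate 1 and 80.6 in replicate 2, and was in the list of each replicate. Its summit lay 28 bp upstream of the outer of 2 annotated 5′ ends, at the edge of the gene. The noncoding RNA genes F26E4.16 and F26E4.14, inside the cox-5B locus, also held this summit in their windows, 524 and 549 bp upstream of their 5′ ends. Among the bound genes, cox-5B thus had one of the summits closest to its own 5′ end.

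The peaks near cox-6A and cox-6B lay closer to the 5′ ends of other genes. At cox-6A (III 5080730 to 5081033, signal value 124) the summit lay 842 bp upstream, inside F54D8.7, an snRNA gene on the opposite strand, and 16 bp downstream of that gene's 5′ end. It reached 44.9 in replicate 1 and 77.8 in replicate 2, and passed the threshold in replicate 2 alone. At cox-6B (III 2785830 to 2786133, signal value 91.4) the summit lay 220 bp upstream of the inner 5′ end, in an intron of a second, longer transcript. It lay 34 bp upstream of a 5′ end of the divergent gene Y71H2AM.20, and the replicates gave 39.2 and 54.0, thresholded in neither.

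The remaining complex IV subunit genes were not bound. The best ranked peak was 65.9 at cox-4, 432 bp upstream, with 35.6 in replicate 1 and 31.3 in replicate 2 and an irreproducible discovery rate (IDR) of 0.0255. The conservative list holds peaks with an IDR of 0.01 or lower. At cox-6C the best ranked peak was 32.3, and the window of cox-7C held no ranked summit in any of these lists. The 8 assembly genes ranged from no ranked peak, for cox-14 and cox-19, to cox-10, the highest. In the ranked list of both replicates cox-10 lay above cox-6C and below cox-4. The replicates' own lists, whose values are lower, each gave 26.9 at cox-10.

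**Figure D2:**
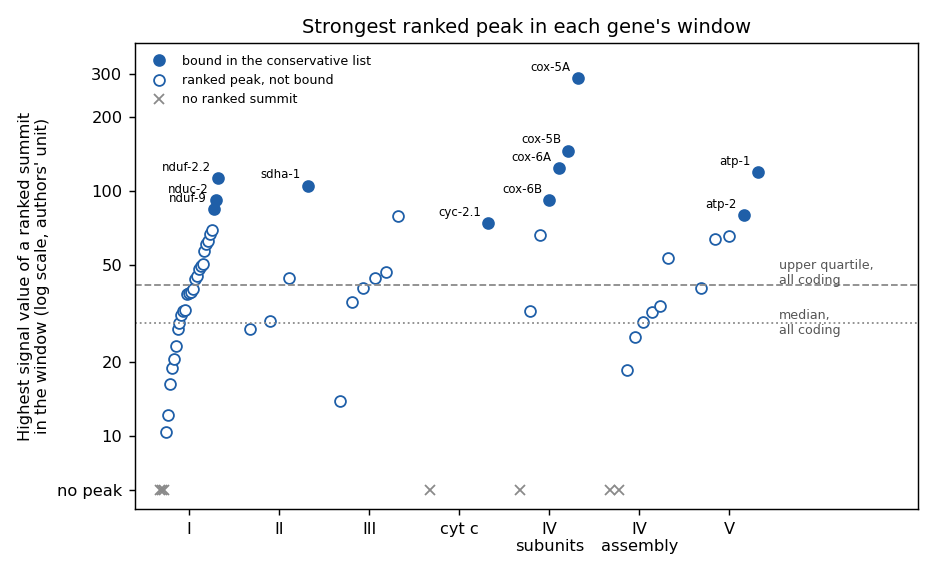
Highest signal value of a ranked summit in each gene's window (y axis, log scale, the authors' unit) by complex, from the ranked list of both replicates. Each point is a gene, filled where it is bound, and crosses mark the 7 genes with no ranked summit; cox-5A stands highest at 289, and the lines give the median (28.8) and upper quartile (41.1) of all coding genes.

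Complex V, the ATP synthase, was bound at the genes of both subunits that form its catalytic head. The alpha subunit gene atp-1 had a peak (I 12652132 to 12652435) of signal value 119, with 59.5 in replicate 1 and 66.2 in replicate 2, and was in the list of each replicate. Its summit lay 7 bp downstream of the 5′ end, in the 5′ UTR, and 197 bp upstream of the divergent gene mcrs-1. The beta subunit gene atp-2, where the catalytic sites lie, had a weaker peak (III 5228573 to 5228876, 79.5), with 41.1 in replicate 1 and 45.5 in replicate 2, thresholded in neither. That summit lay 308 bp downstream of the 5′ end, in a coding exon of atp-2. The genes C34E10.10 and C34E10.12 on the opposite strand also held it in their windows, 841 and 844 bp upstream of their 5′ ends.

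The other 3 complex V genes of the set were not bound but had ranked peaks in both replicates. Values in the ranked list of both replicates were 65.5 at atp-5, 63.4 at atp-4 and 40 at atp-3, subunits of the stalk region. The replicates gave 35.4 and 17.2 at atp-5, 34.4 and 35.8 at atp-4, and 15.3 and 29.3 at atp-3. The median over the 5 genes was 65.5, against 28.8 over all coding genes, a description of few genes. The symbol rule takes only part of the ATP synthase subunits, and those under other names, most of them unbound, are given below.

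Complex I, NADH dehydrogenase, had the most genes and a lower share bound, 3 of 31 (9.68%, Wilson interval 3.35 to 24.9). None of the 3 had its own 5′ end nearest to the summit among coding genes. The gene nduf-2.2 encodes a core subunit and is a paralogue of gas-1. Its peak (III 6464248 to 6464551) had a signal value of 113, with 60.1 in replicate 1 and 51.4 in replicate 2, and passed the threshold in replicate 1 alone. The summit lay 822 bp upstream, inside the noncoding RNA gene T26A5.10, and 621 bp upstream of dlc-1, a divergent gene for a dynein light chain. The gene gas-1 itself, which the symbol rule does not take, had no conservative peak and a best ranked value of 24.9.

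The remaining complex I genes were bound through peaks that passed the threshold in no single replicate. The gene nduc-2, for an accessory subunit, lies directly downstream of cox-6B on the same strand and was bound through the cox-6B peak, 870 bp from its own 5′ end. In the worm, genes so placed are often transcribed together as an operon from a promoter upstream of the first gene. At nduf-9 the peak (III 3249148 to 3249451, signal value 84.2) reached 37.2 in replicate 1 and 50.7 in replicate 2. Its summit lay 725 bp upstream of nduf-9, between Y53G8AL.4, on the same strand, and cel-mir-4936, and 192 bp downstream of the nearest 5′ end of Y53G8AL.4.

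Among the 28 complex I genes that were not bound, ndua-7 (69.5), nduf-11 (66.9), nduv-3 (62.1) and ndub-8 (60.5) came next by their best ranked value. The ndua-7 summit lay 212 bp downstream of the 5′ end in a coding exon, with 35.4 in replicate 1, 41.7 in replicate 2 and an IDR of 0.0443. That of nduf-11 lay 237 bp upstream, with 28.8 and 38.1 and an IDR of 0.0286. The genes nuo-1 to nuo-6, which include core subunits that carry flavin or iron-sulphur centres, ranged from 10.4 at nuo-6 to 56.7 at nuo-5. No summit of the ranked list of both replicates lay in the windows of ndua-13, ndub-6 and ndub-7.

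In complex II, succinate dehydrogenase, sdha-1 was bound and the other 3 genes of the set were not. The gene sdha-1 encodes the flavoprotein that oxidises succinate, an enzyme shared with the citric acid cycle. Its peak (X 8546055 to 8546358) had a signal value of 105, with 42.2 in replicate 1 and 59.6 in replicate 2, thresholded in replicate 2 alone. The summit lay 186 bp upstream of sdha-1, and 3 bp upstream of the 5′ end of the snoRNA gene D2021.6. Its paralogue sdha-2 reached 43.9 in the ranked list, with 20.4 and 24.2 in replicates 1 and 2. The iron-sulphur subunit gene sdhb-1 reached 29.3, with no ranked summit in either replicate's own list, and the membrane anchor gene sdhd-1 reached 27.2.

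Complex III, the cytochrome bc1 complex, had no bound gene among 6 (upper end of the Wilson interval 39.0%). The core protein gene ucr-2.2 came nearest, with a summit 202 bp upstream (X 15173550 to 15173853) and a value of 78.9 in the ranked list. This is above the 73.9 of the weakest bound gene, but the IDR was 0.154, and the replicates' own lists gave 53.7 in replicate 1 and 23.6 in replicate 2. The peak passed the threshold in the list of replicate 1 and in the non-conservative list. Its paralogues ucr-2.1 and ucr-2.3 had ranked values of 40.2 and 44.2. The cytochrome c1 gene cyc-1 reached 46.4, with 12.9 in replicate 1 and 41.8 in replicate 2, ucr-11 reached 35.1 and ucr-1 reached 13.8.

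The 2 cytochrome c genes stood apart from each other. The peak at cyc-2.1 (IV 4748406 to 4748709) had a signal value of 73.9, the lowest of the 11, with 37.7 in replicate 1 and 38.7 in replicate 2, thresholded in neither. Its summit lay 109 bp upstream of the inner of 2 annotated 5′ ends, in an intron of the longer transcript. The next gene on the same strand, tctn-1, also held it in its window, 726 bp upstream. The window of cyc-2.2 held no ranked summit in these lists.

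**Figure D3:**
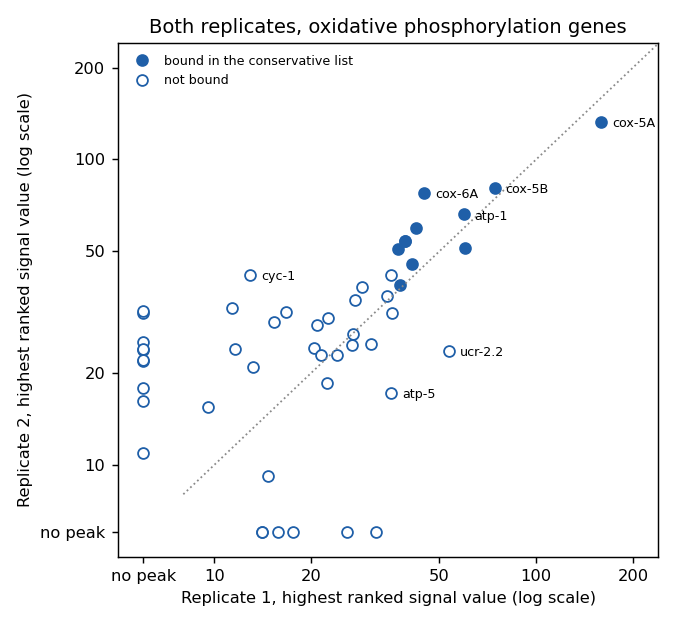
Highest signal value of a ranked summit in the window in replicate 1 (x axis) and replicate 2 (y axis), both log scales, for genes of the set with a ranked summit in either replicate. Filled points are bound genes; cox-5A lies at the top in both replicates with 159 and 133, while ucr-2.2 lies at 53.7 in replicate 1 and 23.6 in replicate 2.

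The ranked list, which holds peaks on both sides of the threshold, was read for bound and unbound genes together. A ranked summit was found in the windows of 56 of the 63 genes (88.9%), against 74.1% of all coding genes, in a list of 87308 peaks. The median highest value was 39.8 in the set, against 28.8 over all coding genes, and 29 of the 63 (46.0%) were above the upper quartile of all coding genes, 41.1. Leaving out bound genes, and so below the threshold, the median was 33.3 over the 52 others of the set and 28.1 over 19354 coding genes. In both replicates' own ranked lists 35 of the 63 had a summit (55.6%), against 37.3% of all coding genes, while 16 had one in 1 replicate only and 12 in neither. Across the 35 genes the Spearman correlation of the replicates' values was 0.69, and 0.42 across the 7455 coding genes with a summit in both. The 35 include all 11 bound genes, whose peaks passed a threshold on the IDR, so the 0.69 in part restates that call. No correlation was taken without the bound genes. Genes are not independent replicates, and neighbours that share a peak enter more than once.

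How the summits lie relative to neighbouring genes was then set out for all bound genes. The summit was also in the window of another coding gene for 7 of the 11 bound genes (63.6%), against 42.5% of all 619 bound coding genes. The gene's own 5′ end was the nearest coding one for 7 of 11 (63.6%), against 77.9%. These were sdha-1, cyc-2.1, cox-5A, cox-5B, cox-6A, atp-1 and atp-2. A tRNA, snoRNA, snRNA or miRNA gene held the summit in its window for 3 of 11 (27.3%), nduf-9, sdha-1 and cox-6A, against 14.7%. The median distance to the gene's own 5′ end was 300 bp, against 284 bp, and the median signal value was 105 in both. Whether a peak belongs to the member or to its neighbour cannot be told apart from peak lists.

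**Figure D4:**
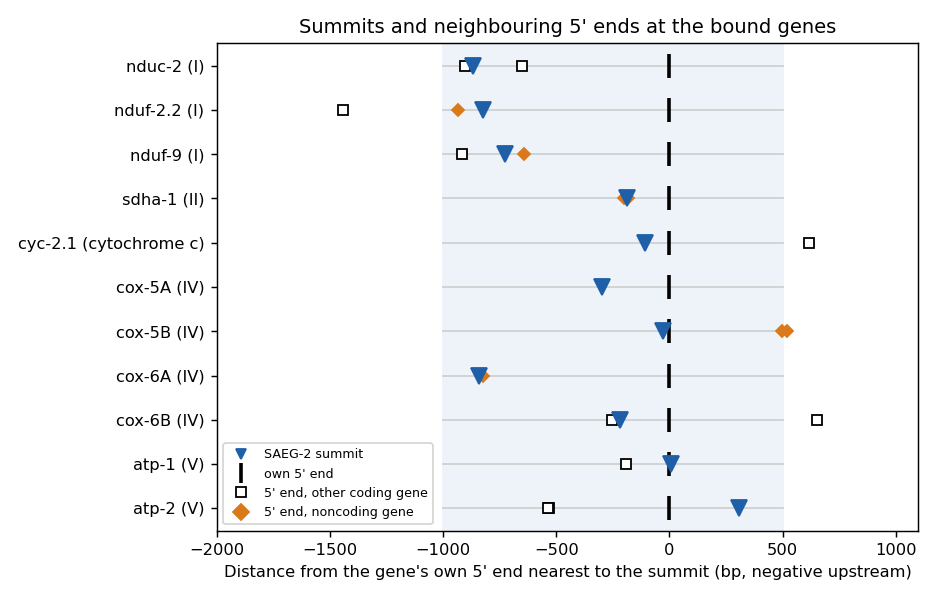
Position of the SAEG-2 summit (triangle) at each of the 11 bound genes, in bp from the gene's own 5′ end nearest to the summit, with 5′ ends of other coding genes (squares) and noncoding genes (diamonds, piRNA genes left out) whose windows hold the same summit. The shaded band is the window; summits lie between 870 bp upstream at nduc-2 and 308 bp downstream at atp-2, and sdha-1 and cox-6A have a noncoding 5′ end within 16 bp.

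The limits of the window decide a few calls. Just inside it lay the summits at nduc-2 (870 bp), cox-6A (842 bp) and nduf-2.2 (822 bp). Among unbound genes, ucr-11 and ndua-5 had the closest conservative summits, 1292 and 1358 bp from a 5′ end, counted on either side of it. They were followed by ndub-10 at 2158 bp and nuo-4 at 2944 bp. With the narrower window of 500 bp upstream and 250 bp downstream, 6 genes were bound (9.52%, against 2.19% of all coding genes), none of them of complex I. With each summit given to the nearest coding gene alone, 7 were bound (11.1%, against 2.41%), again none of complex I.

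Subunits that carry other kinds of names were counted in the same way from a list of 15 nuclear genes. Of these, 2 were bound (13.3%, Wilson interval 3.74 to 37.9). Y82E9BR.3, which encodes the ring-forming subunit c of the ATP synthase, had a peak of 115 lying 357 bp upstream (III 1418687 to 1418990), thresholded in replicate 2 alone. The complex II gene mev-1, for the cytochrome b subunit, had one of 82.6, 147 bp upstream, in neither replicate's list, and nearer to the 5′ end of jmjd-4. Not bound were isp-1, the Rieske protein of complex III, with a best ranked value of 44.8, and lpd-5 of complex I with 26.4. The other ATP synthase genes of this list were not bound either. Their best ranked values were 44.0 at F58F12.1, 43.4 at R53.4, 34.6 at asg-2 and 32.1 at Y69A2AR.18. Lower values were 21.7 at asb-1, 21.3 at R04F11.2 and 20.8 at hpo-18. The windows of asb-2 and asg-1 held no summit of the ranked list of both replicates.

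Other mitochondrial genes varied in their share, to be read against 3.10% of all coding genes. In the citric acid cycle and pyruvate entry list 4 of 23 were bound (17.4%, 6.98 to 37.1): icl-1 (97.8), idhg-1 (95.6), dld-1 (95) and aco-2 (91.1). The list as written also takes icl-1, which encodes an enzyme of the glyoxylate cycle rather than of the citric acid cycle. The summits at icl-1, idhg-1 and dld-1 lay also in the windows of srh-2, mlcd-1 and nspg-9, respectively. The aco-2 summit lay nearer to the 5′ end of eef-1B.1. The list of replicate 1 held 2 of the 23 (8.70%, against 1.48% of all coding genes), icl-1 and idhg-1, and that of replicate 2 held 0 (against 1.63%). Among carriers and channels of the mitochondrial membranes 2 of 9 were bound (22.2%, 6.32 to 54.7). These were ant-1.1 (153, thresholded in both replicates, 34 bp upstream), which exchanges ADP for ATP across the inner membrane, and the outer membrane channel gene vdac-1 (87.8), whose summit lay nearer to R05G6.5. The ant-1.1 summit lay also in the windows of the coding genes T27E9.2 and abcf-2. Each replicate's list held 1 of the 9, ant-1.1. The mitochondrial stress list had 2 of 18 (11.1%), the chaperonin gene hsp-60 (286) and the protease gene clpp-1 (89.3). The hsp-60 summit lay 613 bp upstream with the 5′ end of Y22D7AL.10 nearer, that of clpp-1 lay also in the windows of 2 tRNA genes, and each replicate's list held hsp-60 alone. The import list had 1 of 15, tomm-20 (100), which neither replicate's list held.

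Mitochondrial ribosomal protein genes had 1 of 70 bound (1.43%, Wilson interval 0.253 to 7.66), mrps-21 (87.3), against 3.10% of all coding genes. That summit lay 989 bp upstream and nearer to F29B9.11. The order was the other way round in replicate 1, whose list held 3 of the 70 (4.29%, against 1.48% of all coding genes), while that of replicate 2 held 0 (against 1.63%). None of 12 further assembly factor genes was bound (upper end 24.2%), the highest ranked values being 77.8 at coa-5 and 66.3 at sco-1, for a copper protein of complex IV assembly. None of 8 ubiquinone synthesis genes was bound (upper end 32.4%), the highest ranked value being 46.8 at coq-3.

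**Figure D5:**
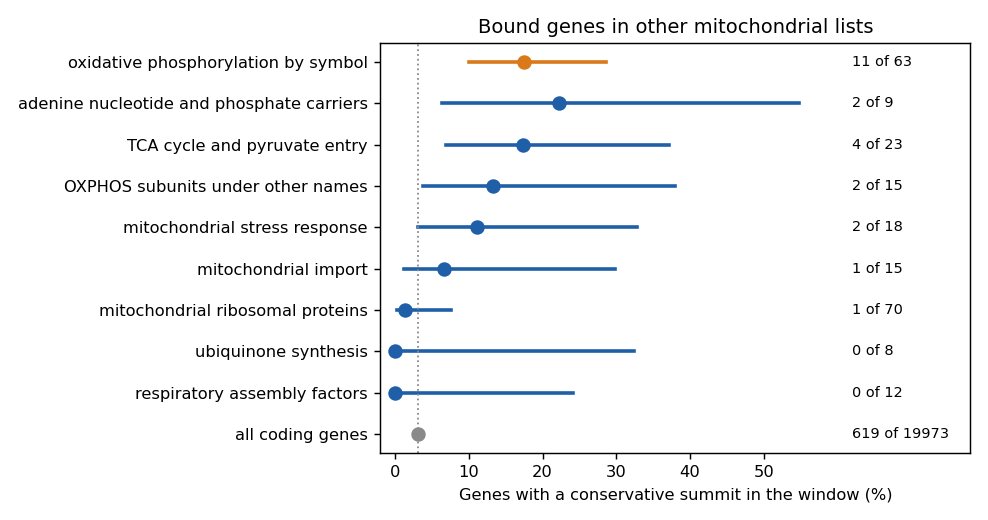
Share of genes with a conservative summit in the window (x axis, percent; points with 95% Wilson intervals) for the 63 oxidative phosphorylation genes taken by symbol, for 8 other mitochondrial gene lists and for all coding genes. Mitochondrial ribosomal proteins lie at 1.43% and assembly factors and ubiquinone synthesis at 0%, while the 63 genes lie at 17.5%.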

How the data were processed

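Peak lists on ce11, the sequence of WBcel235, were used for both replicates together and for each replicate alone, per the deposited file list. No aligner or peak caller is named in the sources used here. Peaks carry a signal value deposited by the authors, in a unit that no header names, and ranks were taken within a list. Values of the replicates come from separate lists and are set side by side without a test of their difference. The deposited ranked lists give the −log10 of the IDR, capped at 5; an IDR of 0.01 is the threshold of the conservative list. No list held a peak on mitochondrial DNA. Read depth is unknown.

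Summits were placed against 5′ ends of all transcripts in Ensembl release 115 (Python 3.11.15, pandas 2.3.3, SciPy 1.17.1), and the window search was tested on simulated data. All 19973 nuclear protein-coding genes were called by the same rule. No statistical test was made, since there is 1 group without a control. The members and lists were chosen with earlier results of these data known. Bound genes were described in full, with the 5 strongest unbound ones and the genes of complexes II, III and V. Of 71 symbols written out in other lists 65 were found, and sft-4 was taken off the assembly list after the annotation was seen. Alternatives covered the peak list, the window, the gene assignment and the membership.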

Additional observations from a re-analysis of the deposited data

How the results depend on the processing

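Against 11 bound genes, 7 of them sharing a coding window, 46 of 70 recomputed counts were within 1.5 times of the reported one, leaving out 2 settings that could not change a count. Some of the 46 still could not differ, since any alternative that only removes calls keeps complex III at 0. The list of a single replicate gave 5 bound genes in either case, with 0 to 1 in complex I, 0 to 1 in complex II, 0 to 1 in complex III, 2 to 3 in complex IV, 1 in complex V and 1 to 2 sharing a window. These lists are shorter, with 452 and 541 peaks. The non-conservative list put 1 complex III gene among the bound ones. The narrower window gave 6 bound genes, 0 in complex I, 1 in complex V and 2 sharing a window. The nearest gene alone gave 7, with 0 in complex I and, by construction, 0 sharing a window. Peaks on the upper side of the list's median signal value gave 6, with 1 in complex I, 1 in complex V and 2 sharing. Without summits in tRNA, snoRNA or snRNA windows 9 remained, and complex II had 0, since sdha-1 and cox-6A were lost. The outermost 5′ end alone gave 10, without cox-6B. The 2 settings left out were subunits only, since no assembly gene is bound, and nuclear genes only, since all 63 are nuclear. Both left 11 by construction. Any overlap of peak and window and the 58 peaks with an IDR of 0.01 or lower that the conservative list lacks, restored as a choice made after seeing the data, each left 11. No paired analysis was possible because there is 1 group. Complexes II, III and V have few genes, and the intervals of complexes II to V all overlap that of complex I.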

Other observations

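The bound genes were uneven across chromosomes, a count made after the values were seen. On chromosome III 7 of 14 genes of the set were bound, through 6 peaks, against 3.98% of all coding genes there. On the other chromosomes bound genes numbered 2 of 18 on I, 0 of 11 on II, 1 of 10 on IV, 0 of 7 on V and 1 of 3 on X. The share of all coding genes bound on these chromosomes lay between 2.14% on V and 3.72% on I. The tagged saeg-2 gene is also on III, and the part of this in the counts was not tested.

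Genes of the set often have a close coding neighbour on their upstream side. For 30 of the 63 (47.6%) the only such neighbour was a divergent coding gene with its 5′ end within 1000 bp. The share over all coding genes was 17.5%. A same-strand gene ending within 500 bp was present for a further 21 (33.3%), against 18.7%, and was counted first where both applied. Bound genes were 3 of 30 in the divergent arrangement (10%, against 5.55% of all coding genes so arranged) and 3 of 21 in the same-strand one (14.3%, against 2.41%). Among the 12 with neither, 5 were bound (41.7%, against 2.63%): nduf-2.2, nduf-9, cox-5A, cox-5B and cox-6A. Yet the 5′ ends of dlc-1 and Y53G8AL.4 lay nearer to the summits of nduf-2.2 and nduf-9. The cox-6A summit lay inside the snRNA gene F54D8.7, and noncoding neighbours were not counted. This split was not planned in advance.

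Short words were looked for on both strands within 50 bp of the 10 summits and of all 1145 conservative summits. The word CACGTG was at none of the 10, against 6.38% of all summits. Also at none were GATAAG (6.20% of all summits), GTAAAC (4.37% of all) and TATAAA (5.41% of all). CTGCGTC was at 1, that of cyc-2.1, against 7.07%, and GAGAGA at 2, those of sdha-1 and cyc-2.1, against 17.6%. GGTTCGA, a stretch of the internal promoter element of tRNA genes called the B box, was searched after the bases near nduf-9 had been seen. It was at 1 of the 10, nduf-9, against 70 of all 1145 summits and 38.2% of the 144 summits in tRNA gene windows.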
